A study of Homo sapiens with 6 samples.

Results

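OR51E1, HEPACAM2, SERPINA1, FAM178B and ADGRB1 are 5 genes that were picked because their signal was clearly higher in LS174T cells kept in CompE than in cells kept in the vehicle, and because their place in the secretory cells of the gut is less well known than that of the mucin or defensin genes. They were chosen by that difference, with no numerical threshold, so their values are given here as a description and no test is applied to them. Every probe set that the platform annotation assigns to one of the 5 symbols was taken, which gave 8 probe sets of the 54674 on the array: 4 for SERPINA1 and 1 for each of the other genes. Of these 8, 7 passed the filter on dim probe sets, and all 5 genes are among the 14308 genes tested.

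LS174T is an established human colon adenocarcinoma line with a mucin-producing character, used here as a single line without a second one beside it. Cultures were kept for 48 h with either DMSO or 250 nM CompE, 3 cultures and 3 Affymetrix Human U133 Plus 2.0 arrays per condition, and all cultures shared the same medium with serum and antibiotics. CompE is the usual short name of Compound E, an inhibitor of gamma-secretase, although the labels give only the short form. The series' title concerns NOTCH1 and neddylation in a T cell leukaemia; these arrays ask how the colon line responds to CompE alone.

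Gamma-secretase cuts Notch receptors inside the membrane and so frees the fragment that acts in the nucleus. In the intestine, Notch signalling keeps progenitors on the absorptive path through the repressor HES1, and its loss lets the transcription factor ATOH1 direct cells toward goblet, Paneth and enteroendocrine fates. The 5 genes differ widely in kind. OR51E1 is an odorant receptor expressed outside the nose that senses fatty acids. HEPACAM2 is a membrane protein of the immunoglobulin superfamily that tankyrase modifies and that also acts at the centrosome. SERPINA1 encodes alpha-1-antitrypsin, a secreted inhibitor of neutrophil elastase made mainly by the liver. FAM178B is a little-studied relative of SLF2. ADGRB1, also called BAI1, is an adhesion receptor that binds phosphatidylserine on dying cells and signals through ELMO and DOCK proteins.

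The DNA just before the start of a gene is shown for OR51E1, whose start held none of the motifs searched, and around each match found in the others. RefSeq sequences of build GRCh38.p14 were found for all 4 genes looked up (7 starts in all), and none was looked up for ADGRB1. In each, the 250 bases before the start were searched on both strands for 6 motifs: CAGCTG, the E-box core read by ATOH1 and other basic helix-loop-helix factors; TGGGAA, the core of sites for RBPJ, the DNA-binding partner of Notch; GTTAAT and CAAAGT, short sites of liver-enriched factors; TGTTTAC, a forkhead motif; and TATAAA, the TATA box. None of these motifs overlaps another in the matches found. Of 35116 promoters of the same length, 14% held CAGCTG, 20.8% TGGGAA, 6.23% GTTAAT, 10.3% CAAAGT, 2.98% TGTTTAC and 10.7% TATAAA. The 250 bases before OR51E1 (chr11:4643732-4643981, plus strand) held none of the 6 and are printed whole as an example of a start without any of these motifs. The first start of HEPACAM2 had a CAGCTG beginning 207 bases before it (chr7:93232388-93232417, minus strand) and a TGGGAA beginning 123 bases before it (chr7:93232304-93232333, minus strand). Its second start had 1 TGGGAA, on the opposite strand (chr7:93219708-93219737, minus strand), and so the capitals there read as the reverse complement. One of the 2 starts of SERPINA1 had a GTTAAT beginning 76 bases before it (chr14:94388661-94388690, minus strand), and the other start had no match. Neither start of FAM178B had a match. Each sequence runs 5′ to 3′ on the strand of its gene, and capitals mark the motif.
OR51E1: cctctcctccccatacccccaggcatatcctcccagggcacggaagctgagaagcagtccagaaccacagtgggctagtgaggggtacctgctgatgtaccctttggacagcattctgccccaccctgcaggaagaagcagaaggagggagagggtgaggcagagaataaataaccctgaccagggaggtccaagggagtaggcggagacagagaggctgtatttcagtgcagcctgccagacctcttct
HEPACAM2, first start, E-box core: cgagccactacaCAGCTGgccctgacacta
HEPACAM2, first start, RBPJ core: ccctgggcctgcTGGGAActgtagtcttct
HEPACAM2, second start, RBPJ core: ttagttctccttTTCCCAttattccgtagc
SERPINA1, liver-type short site: ggggtgaccttgGTTAATattcaccagcag

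A match is a description of these letters and not a site in use, since the arrays measure RNA only. A missing match says only that the letters are not in this window.

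All 6 arrays were alike in scale, with median intensities between 36.9 and 38.6, and the correlation across probe sets was 0.987 to 0.988 between arrays of 1 group and 0.981 to 0.985 between groups. All 13 markers of colon epithelium on the array were above background by their mean log2 value over the 6 arrays. By the same measure, 3 of 9 markers for leukocytes were above background, 5 of 10 for fibroblasts and 1 of 8 for endothelium. PTPRC, CD3D, CD3E, CDH5 and VWF were at or below it, whereas LYZ, the lysozyme gene that is also a Paneth marker, read 1580 ± 141 in DMSO and 1271 ± 128 in CompE. The summed intensity of the leukocyte markers was 1758 to 2064 in DMSO and 1363 to 1663 in CompE, that of the fibroblast markers 393 to 491 and 411 to 438, and that of the endothelial markers 307 to 395 and 286 to 336; their part in the results was not tested. The treatment was visible at its known targets: HES1 fell 2.81-fold, from intensities of 756 to 872 in DMSO to 256 to 307 in CompE, OLFM4, a stem cell gene that Notch activates, fell 6.08-fold, and ATOH1 rose 6.13-fold (limma adjusted p = 0.00198, 0.000253 and 0.000892). The 3'/5' ratio of ACTB, which reads RNA integrity and labelling together, ran from 1.42 to 1.46 in DMSO and from 1.49 to 1.53 in CompE. That of GAPDH overlapped between the conditions, at 0.958 to 0.979 in DMSO and 0.918 to 0.970 in CompE. The mean log2 intensity of the hybridisation controls ran from 11.61 to 11.63 in DMSO and from 11.69 to 11.83 in CompE. The part of RNA integrity in the results was not tested. Centring the arrays on the hybridisation controls shifts all genes of an array by the same amount and does not bear on RNA integrity. With that centring, the 5 genes were higher in CompE by 1.01 (FAM178B) to 1.72 (OR51E1) on the log2 scale.

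OR51E1 had the largest ratio among the 4 genes that were above background in both conditions. Its probe set (229768_at) read 527, 514 and 532 in the 3 DMSO cultures and 1956, 1928 and 1835 in the 3 CompE cultures. Every CompE array therefore lay far above every DMSO array, and the spread inside each condition was small beside the gap (524 ± 9.26 against 1906 ± 63.5, mean ± SD, n = 3 each). The ratio was 3.64-fold, and over the 9 possible pairs of a CompE with a DMSO array it ran from 3.45-fold to 3.81-fold. This placed OR51E1 in the 9th place among the 14308 genes ordered by log2 change. As background for all 5 genes, 4.56% of the genes tested rose and 2.57% fell (7.14% in all; limma, adjusted p under 0.05), 0.44% rose at least 2-fold, 0.587% were higher by 1 or more on the log2 scale with no test, and in 19.1% all 3 CompE arrays lay above all 3 DMSO arrays. The 5 genes were picked from the same contrast, so nothing is read from their count against these shares. In bulk RNA, more cells that express a gene and more RNA per cell cannot be told apart.

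ADGRB1 had a dim signal in the vehicle. Its probe set (206083_at) read 44.9, 35.8 and 32.2 in DMSO and 124, 124 and 127 in CompE. The CompE arrays were almost equal to one another, whereas the DMSO arrays varied more (37.6 ± 6.59 against 125 ± 1.62, n = 3 each). All 3 DMSO readings lay below 45.7, the level that 95% of the 27 probe sets for Bacillus transcripts stayed under, which serves here as the background. The fold is therefore a lower bound, at least 2.74-fold over that level; the measured ratio of 3.35-fold had a range of 2.76-fold to 3.94-fold over the 9 pairs. A signal below background in the vehicle does not show that the transcript was absent there.

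HEPACAM2 (242601_at) read 118, 110 and 116 in DMSO and 298, 306 and 315 in CompE. Both conditions were well above background and did not overlap (115 ± 4.39 against 306 ± 8.36, n = 3 each). The ratio was 2.68-fold, with a range of 2.53-fold to 2.87-fold over the pairs of arrays.

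SERPINA1 is the only one of the 5 with several probe sets, and they fell into a bright and a dim pair. The brightest (211429_s_at) read 192, 183 and 176 in DMSO and 438, 433 and 425 in CompE (184 ± 8.12 against 432 ± 6.38, n = 3 each; 2.35-fold). The second (202833_s_at) read 126, 102 and 124 in DMSO and 306, 278 and 303 in CompE, a ratio of 2.53-fold. In both probe sets every CompE array was above every DMSO array. The third (230318_at) read 35.3, 29.0 and 28.7 in DMSO and 22.3, 39.5 and 39.5 in CompE, and the fourth (211428_at) read 6.80, 14.1 and 10.9 in DMSO and 7.12, 17.7 and 17.98 in CompE. Both dim probe sets stayed below background in each condition and their groups overlapped, so they carry no information on the direction. Averaging the 3 probe sets past the filter, as an alternative, lowered the log2 difference of SERPINA1 from 1.23 to 0.88.

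FAM178B had the smallest ratio of the brightest probe sets of those 4 genes and, on the log2 scale, the tightest replicates. Its probe set (223812_at) read 65.0, 63.4 and 65.3 in DMSO and 140, 144 and 147 in CompE. The conditions did not overlap (64.6 ± 1.01 against 144 ± 3.23, n = 3 each), and the vehicle lay somewhat above background. The ratio was 2.22-fold, with a range of 2.15-fold to 2.31-fold over the pairs.

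**Figure D1:**
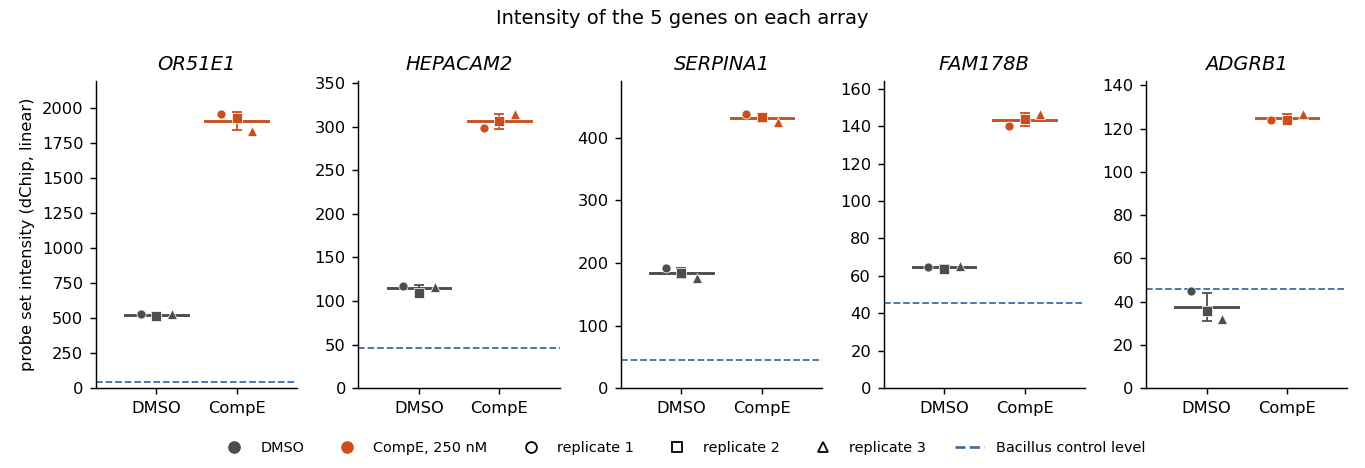
Probe set intensity (linear axis from 0, a separate scale per gene) of OR51E1, HEPACAM2, SERPINA1 (its brightest probe set), FAM178B and ADGRB1 on each of the 3 DMSO (grey) and 3 CompE (orange) arrays; bars are means and whiskers 1 SD, and the dashed line is the Bacillus control level of 45.7. In each gene the 3 orange points lie above the 3 grey points, and for ADGRB1 alone the grey points lie below the dashed line.

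Ordered by ratio, the 4 genes above background in both conditions ran OR51E1, HEPACAM2, SERPINA1 and FAM178B. The fold of ADGRB1 is only bounded from below, so its order against OR51E1 is open. Its bound of 2.74-fold lay above the ratios of HEPACAM2, SERPINA1 and FAM178B. It was inside the range of HEPACAM2 over array pairs (2.53-fold to 2.87-fold). The ranges over array pairs of SERPINA1 and FAM178B overlapped. HEPACAM2 lay just above the brightest probe set of SERPINA1, whose highest pair was 2.49-fold, but the range of the second bright probe set of SERPINA1 (2.21-fold to 2.99-fold) covered that of HEPACAM2. The spread inside the conditions also differed. On the log2 scale the pooled within-group SD was 0.03 for FAM178B, 0.04 for OR51E1 and 0.05 for both HEPACAM2 and SERPINA1, against 0.17 for ADGRB1 and a median of 0.10 over all genes tested. The genes did not share 1 high culture: the highest CompE reading was that of replicate 3 for HEPACAM2, FAM178B and ADGRB1, and that of replicate 1 for OR51E1 and SERPINA1.

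**Figure D2:**
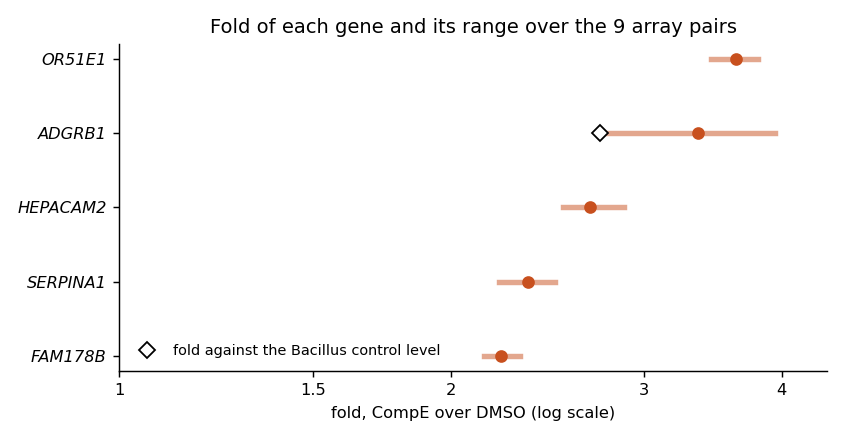
Fold of CompE over DMSO (log axis) for each of the 5 genes; the point is the ratio of the group means of log2 intensity, the bar spans the lowest to the highest of the 9 pairs of a CompE with a DMSO array, and the open diamond is the lower bound for ADGRB1 against the Bacillus control level. The bars of SERPINA1 and FAM178B overlap, and the place of ADGRB1 is fixed only by its lower bound of 2.74-fold.

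The genes with the most similar course over the 6 arrays were found by the Euclidean distance between log2 values centred on each gene's mean, a measure in which the size of the difference between conditions counts most. For OR51E1 they were DLL4, a Notch ligand gene (distance 0.21), KLK12, a kallikrein peptidase gene (0.27), and RETNLB, a goblet cell secreted protein gene (0.29). For HEPACAM2 they were FCGBP, which encodes a mucus protein (0.12), SPINK4, a goblet gene for a peptidase inhibitor (0.18), and LFNG, a glycosyltransferase gene of the Notch pathway (0.20). For SERPINA1 they were LFNG (0.12), the non-coding SSTR5-AS1 (0.14) and POU2AF3, a transcriptional coactivator gene (0.14). For FAM178B they were SMOC2, a matrix protein gene (0.12), UTRN, which encodes utrophin (0.16), and LFNG (0.16). For ADGRB1 the closest were DLL4 (0.38), FCGBP (0.44) and KLK12 (0.45), at larger distances than for the other 4. With 6 arrays in 2 conditions these likenesses are a description and show nothing about control or function.

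Among odorant receptors other than OR51E1, no gene passed the test. Of 101 such genes and pseudogenes on the array, 36 were tested and only 15 of them were above background in either condition. By limma 0 rose and 0 fell, beside 7.14% called of all genes tested. At an unadjusted p under 0.05, 2 were higher and 2 lower. Their median log2 change was -0.005, beside 0.02 for all genes tested. The gene with the smallest p was OR51E2, the odorant receptor gene that stands next to OR51E1 on the chromosome and that is also known to sense short fatty acids. Its brightest probe set read 26.7, 34.1 and 23.3 in DMSO and 52.8, 41.1 and 38.2 in CompE, a log2 difference of 0.66 ± 0.18 (SE) that did not pass (adjusted p = 0.0937). The conditions did not overlap, but most of these readings were below background. The second probe set of OR51E2 read 18.2, 22.0 and 10.1 in DMSO and 58.9, 51.2 and 44.95 in CompE, at least 1.13-fold over background, and the third read 16.1, 13.95 and 13.7 against 31.7, 28.1 and 34.4. All 3 probe sets were thus higher in each CompE array than in any DMSO array, as were 19.1% of all genes tested by their brightest probe set. The third probe set did not pass the filter on dim probe sets and lay below background on every array, so it adds no support. When a gene was taken as the mean of its probe sets past the filter, OR51E2 changed by 1.17 and passed (limma adjusted p = 0.0472). Over the alternatives its adjusted p ran from 0.0472 to 0.215. That mean includes the second probe set, whose DMSO readings were all below the cut of the filter on dim probe sets (intensity 24.4). The second probe set passed the filter only through its CompE arrays, so this pass is not read as further support for a rise.

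**Figure D3:**
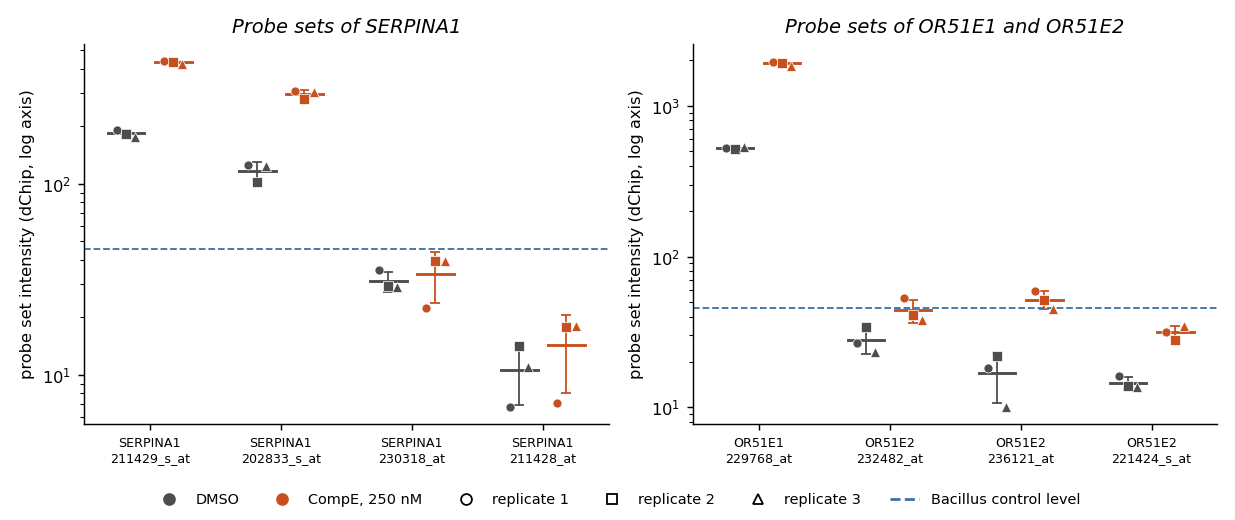
Probe set intensity (log axis) on each array for the 4 probe sets of SERPINA1 and for OR51E1 with the 3 probe sets of its neighbour OR51E2; grey is DMSO, orange is CompE, marker shapes are replicates, bars are means, whiskers 1 SD, and the dashed line is the Bacillus control level of 45.7. The bright pair of SERPINA1 probe sets is higher in CompE and the dim pair overlaps, while the OR51E2 points are separate but lie around or below the dashed line.

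Among other receptors for metabolites the only call was a fall. Of 10 such genes, 1 fell and 0 rose by limma, or 10% called beside 7.14% of all genes tested. At an unadjusted p under 0.05, 1 was higher and 2 were lower, and the median log2 change was -0.08. The gene that fell was ADORA2B, an adenosine receptor gene, from 1128 ± 51.9 to 766 ± 42.5 (1.47-fold; n = 3; limma adjusted p = 0.0104). Without DMSO replicate 3 its adjusted p was 0.0519. The fatty acid receptor genes FFAR2 and FFAR4, named after their values were seen, had log2 differences of -0.49 and -0.21 that did not pass (adjusted p = 0.345 and 0.319). Of 13 genes of odorant receptor signalling and transport, 0 passed by limma (unadjusted p under 0.05: 2 higher, 2 lower; median 0.0009). RIC8B, which encodes a chaperone of the olfactory G protein, came closest at 0.19 (adjusted p = 0.121).

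The closest relative of HEPACAM2, HEPACAM, was not analysed here. Of 28 tested genes for adhesion proteins of the immunoglobulin superfamily, 1 rose and 1 fell by limma (7.14% called, beside 7.14% of all genes tested; unadjusted p under 0.05: 4 higher, 4 lower), with a median of 0.03. CADM4, a cell adhesion gene, rose 1.503-fold from 93.1 ± 4.09 to 140 ± 12.6 (n = 3; limma adjusted p = 0.0156), and MPZL2, an epithelial adhesion gene, fell 1.44-fold from 479 ± 23.8 to 333 ± 27.2 (limma adjusted p = 0.0196). Both calls ended without CompE replicate 1 or any 1 of the DMSO replicates, and that of MPZL2 also without CompE replicate 2 (highest adjusted p 0.0656 for CADM4 and 0.0828 for MPZL2). Of 26 genes of tankyrases and the centrosome, all above background, 1 rose and 0 fell by limma (3.85% called; unadjusted p under 0.05: 7 higher, 1 lower; median 0.10). AKAP9, a scaffold gene of the centrosome and Golgi, rose 1.32-fold from 327 ± 10.9 to 432 ± 8.31 (n = 3; limma adjusted p = 0.0119). Its call ended without DMSO replicate 1 or 2 or CompE replicate 1 (highest adjusted p 0.0635), with the arrays centred on the hybridisation controls and with the mean of its probe sets. The tankyrase genes TNKS and TNKS2, named after their values were seen, had log2 differences of 0.27 and 0.16 that did not pass (adjusted p = 0.0965 and 0.263); TNKS passed with the lowest 60% of probe sets left out (0.0438), and its sign turned with the mean of its probe sets.

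Of 13 serpin genes tested other than SERPINA1, 1 rose, 2 fell and 10 did not pass by limma (23.1% called, beside 7.14% of all genes tested; unadjusted p under 0.05: 2 higher, 4 lower), with a median of -0.08. SERPINI1, the neuroserpin gene, rose 1.37-fold from 456 ± 6.47 to 624 ± 33.9 (n = 3; limma adjusted p = 0.0128). SERPINB5, which encodes maspin, fell 1.49-fold from 896 ± 59.0 to 602 ± 25.0 (limma adjusted p = 0.0109), and SERPINB12 fell at least 1.52-fold, to below background (limma adjusted p = 0.0237). All 3 calls ended without CompE replicate 1 or DMSO replicate 3; that of SERPINI1 also ended without DMSO replicate 1 or 2, and that of SERPINB12 without DMSO replicate 2 or CompE replicate 2 (highest adjusted p 0.0609 for SERPINI1, 0.0541 for SERPINB5 and 0.0902 for SERPINB12). SERPINI1 was also not called with the arrays centred on the hybridisation controls. The probe set of SERPINA3, the antichymotrypsin gene, was too dim to be tested, at 15.6 ± 5.11 in DMSO and 23.8 ± 4.84 in CompE.

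Genes for other proteins that the liver secretes gave a single call, a fall. Of 14 tested, 7 were above background, 0 rose and 1 fell by limma (7.14% called, beside 7.14% of all genes tested; unadjusted p under 0.05: 0 higher, 2 lower; median 0.07). LCN2, an iron-sequestering defence protein gene, fell 1.66-fold from 438 ± 63.3 to 262 ± 13.8 (n = 3; limma adjusted p = 0.0215); the call held only without DMSO replicate 1 among the 6 fits that left out an array (highest adjusted p 0.0856). Of 9 tested transcription factor genes known from work on the SERPINA1 promoter, 2 rose and 2 fell by limma (44.4% called, beside 7.14% of all genes tested; unadjusted p under 0.05: 3 higher, 2 lower; median 0.13). FOXA2, a forkhead factor gene of gut and liver, rose 1.6-fold from 486 ± 12.3 to 779 ± 56.3 (n = 3; limma adjusted p = 0.00624). Its second probe set gave 0.72 and another, below background, 0.03, and the call ended with the mean of them (adjusted p up to 0.0631 over the alternatives). FOXA3, named after its values were seen, rose 1.28-fold (limma adjusted p = 0.0427). CEBPB and CEBPD, factors of the acute phase response, fell by 0.37 and 0.33 on the log2 scale (limma adjusted p = 0.0318 and 0.0301). The calls of FOXA3, CEBPB and CEBPD ended whichever array was dropped (adjusted p up to 0.128, 0.0997 and 0.101).

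For FAM178B, the genes of its relative SLF2 and of the SMC5/6 complex, a chromosome maintenance complex that SLF2 helps recruit, gave no call. Of 10 tested, all above background, 0 passed by limma, beside 7.14% called of all genes tested (unadjusted p under 0.05: 2 higher, 0 lower, median 0.07). With so few genes, the absence of a call is not read as a result about the list. SIMC1, a cofactor gene of the complex, had the smallest p, with a log2 difference of 0.19 ± 0.05 (SE; adjusted p = 0.0661). SLF2 read 279, 258 and 271 in DMSO and 313, 309 and 293 in CompE, a difference of 0.18 ± 0.06 (SE) that did not pass (adjusted p = 0.117).

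Adhesion receptors of the family of ADGRB1 gave a single call. Of 17 tested, 10 were above background, 1 rose and 0 fell by limma (5.88% called, beside 7.14% of all genes tested; unadjusted p under 0.05: 3 higher, 0 lower; median -0.07). ADGRG1, an adhesion receptor gene also called GPR56, rose 1.30-fold from 912 ± 5.12 to 1190 ± 98.6 (n = 3; limma adjusted p = 0.0346), a call that ended whichever array was dropped (adjusted p up to 0.110). ADGRB2, the closest relative that could be tested, was below background in both conditions, at 43.8 ± 5.52 and 41.7 ± 4.38 (adjusted p = 0.787), and both probe sets of ADGRB3 were too dim to be tested. Of 24 genes of engulfment and of ELMO and DOCK signalling, 4 rose and 0 fell by limma (16.7%, beside 4.56% of all genes tested that rose; unadjusted p under 0.05: 5 higher, 3 lower; median 0.10). These were MFGE8 (at least 1.36-fold), GAS6 (1.25-fold) and PROS1 (1.22-fold), which encode secreted proteins that bridge phosphatidylserine to receptors, and DOCK4, named after its values were seen (1.51-fold). Their limma adjusted p-values were 0.0236, 0.0278, 0.0350 and 0.0369. With 1 array left out the list had 0 or 1 call; the calls of GAS6, PROS1 and DOCK4 ended whichever array it was, and that of MFGE8 ended with any array but DMSO replicate 2 left out (highest adjusted p 0.0904 for MFGE8, 0.102 for GAS6, 0.121 for PROS1 and 0.106 for DOCK4). The other probe set of MFGE8 gave -0.39, and with the mean of both the adjusted p was 0.928.

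**Figure D4:**
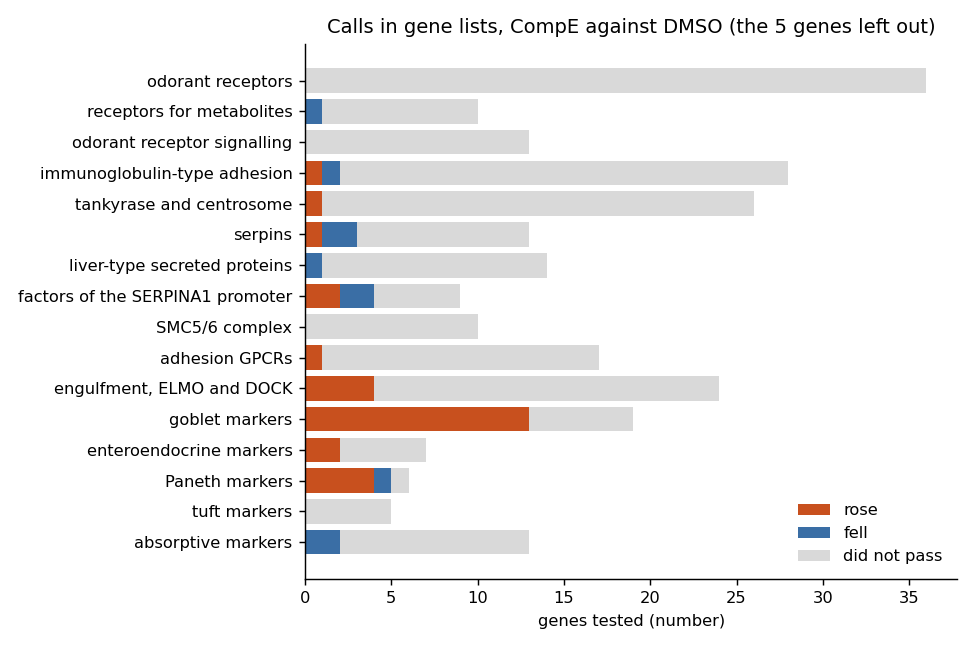
Number of genes tested in each list, split into those that rose (orange), fell (blue) or did not pass (grey) in the limma fit of CompE against DMSO at an adjusted p under 0.05, with the 5 genes themselves left out. None of the 36 odorant receptor genes passed, whereas 13 of 19 goblet markers rose. Of all genes tested, 4.56% rose and 2.57% fell.

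Markers of the secretory cells of the gut stand beside these lists. Of 19 goblet markers tested, 13 rose and 0 fell by limma, or 68.4% called beside 7.14% of all genes tested. At an unadjusted p under 0.05, 14 were higher and 1 lower, and the median log2 change was 0.43. With 1 array left out, 5 to 9 rose. Their summed intensity was 22346 to 23092 in DMSO and 28187 to 30324 in CompE, although CLCA1, ITLN1 and BCAS1 were at or below background by their mean log2 value over the 6 arrays. Of 6 Paneth markers, 4 rose and 1 fell by limma (unadjusted p under 0.05: 4 higher, 2 lower). SPINK4, which is on the goblet list too, DEFA6, PLA2G2A and DEFA5 rose. PRSS2, whose probe sets share sequence with other trypsinogen genes, fell by 0.97 on the log2 scale (limma adjusted p = 0.00259). LYZ was lower in CompE by 0.32 and was not called (limma adjusted p = 0.132). Its other probe set gave -0.29, and the mean of both was called as a fall (limma adjusted p = 0.0350). DEFA5 and PRSS2 were named after their values were seen, and the call of DEFA5 ended without CompE replicate 1 (adjusted p = 0.0534). Only 7 of 24 enteroendocrine markers on the array were bright enough to test, of which NEUROG3 and ISL1 rose and 0 fell by limma (unadjusted p under 0.05: 4 higher, 0 lower). NEUROG3 read 17.6, 19.4 and 11.7 in DMSO and 58.7, 65.5 and 60.3 in CompE. Its DMSO readings were all below background and below the cut of the filter on dim probe sets. NEUROG3 passed that filter only through its CompE arrays, so its call is not read as support for a rise. The endocrine genes CHGA, CHGB and TPH1 were at or below background. The call of ISL1 ended whichever array was dropped (adjusted p up to 0.128). Of 5 tuft markers 0 passed by limma (unadjusted p under 0.05: 0). Of 13 absorptive markers 2 fell, DPP4 and CA2 (limma adjusted p = 0.00805 and 0.0301). This was 15.4% called, beside 7.14% of all genes tested (unadjusted p under 0.05: 1 higher, 3 lower). The call of CA2 ended whichever array was dropped (adjusted p up to 0.102). Which of these cells, if any, held the transcripts of the 5 genes was not tested.

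The genes beside each of the 5 on the chromosome were mostly without a call. Taking the 5 nearest protein-coding genes on either side gave 50 genes, of which 37 were on the array and 24 were tested. By limma 5 of the 24 rose and 0 fell, which is 20.8% of them beside 4.56% of all genes tested, and their median log2 change was 0.12. TSNARE1, a gene for a vesicle fusion protein that is next to ADGRB1, rose most, from 185, 171 and 156 in DMSO to 316, 358 and 319 in CompE (1.94-fold; limma adjusted p = 0.00495). PTP4A3, a phosphatase gene on the same side of ADGRB1, rose 1.70-fold from 105 ± 9.40 to 179 ± 18.2 (n = 3; limma adjusted p = 0.0156). TRIM68, a ubiquitin ligase gene beside OR51E1, read 234, 242 and 273 in DMSO and 383, 384 and 349 in CompE, a rise of 1.49-fold (limma adjusted p = 0.016). SEMA4C, a semaphorin gene beside FAM178B, rose 1.31-fold from 297 ± 4.42 to 387 ± 10.2 (limma adjusted p = 0.0115), and VPS50, an endosomal trafficking gene next to HEPACAM2, rose 1.23-fold (limma adjusted p = 0.0416). None of the 5 genes tested beside SERPINA1 passed by limma (unadjusted p under 0.05: 0). The call of VPS50 ended whichever array was dropped (adjusted p up to 0.131). Those of the other 3 besides TSNARE1 ended without CompE replicate 1 (SEMA4C, 0.0596, and TRIM68, 0.0721), CompE replicate 2 (PTP4A3 and TRIM68), CompE replicate 3 (PTP4A3), DMSO replicate 1 (TRIM68), DMSO replicate 2 (all 3) or DMSO replicate 3 (PTP4A3, 0.0631, and SEMA4C).

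**Figure D5:**
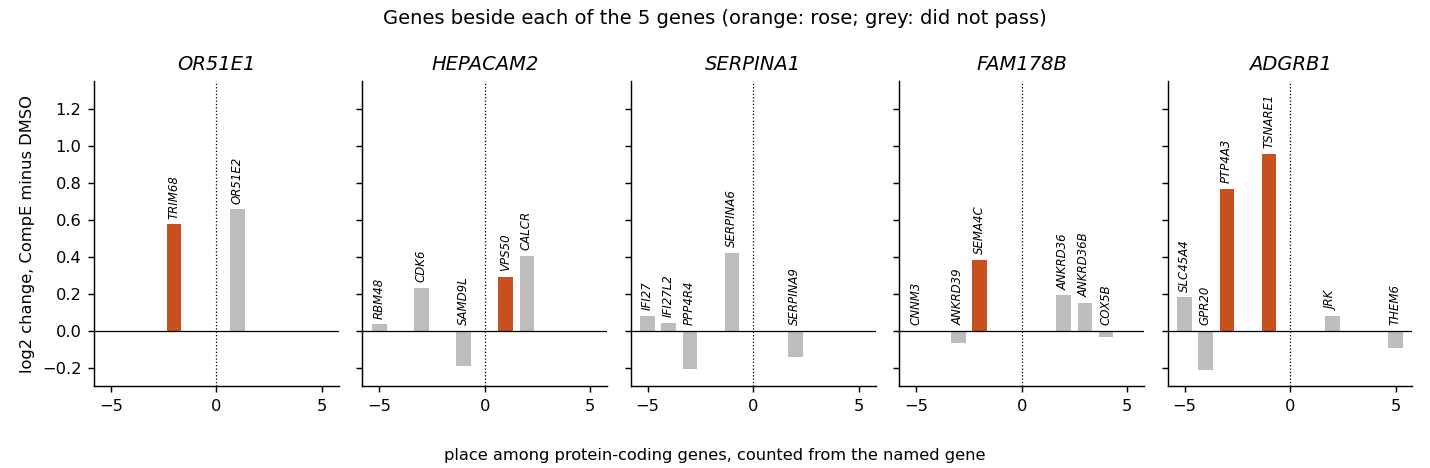
Log2 change (CompE minus DMSO) of the tested genes among the 5 nearest protein-coding genes on either side of each of the 5 genes, by place counted from the named gene at 0; orange bars rose and grey bars did not pass. TSNARE1 and PTP4A3 beside ADGRB1 have the tallest orange bars, and no gene beside SERPINA1 passed.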

How the data were processed

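The 5 genes and the gene lists were chosen with earlier results of these data known. Per the labels and the series' design text, the authors labelled each RNA with biotin from the 3' end and normalized the arrays with dChip; the deposited values are intensity on a linear scale. Values were floored at 1 and put on the log2 scale without a second normalization. The 62 control probe sets, probe sets without exactly 1 gene in the platform annotation of the array, and the 40% with the lowest mean log2 value (below 4.61) were left out. The brightest probe set stood for its gene, and symbols were updated through Entrez identifiers to GRCh38.p14 gene names. This gave 14308 genes, fitted with limma 3.58.1 in R 4.3.3 (lmFit, eBayes, two-sided, all 6 arrays, no covariate) and adjusted by Benjamini-Hochberg over all of them. The fit was tested on simulated data. P-values set the difference between conditions against the spread between 3 cultures per group, which limma moderates over all genes tested. With so few arrays precision is limited, and the median SE of a log2 change was 0.08.

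Background is the 95th percentile of the 27 Bacillus control probe sets (intensity 45.7). Whether Bacillus transcripts were added to the RNA is not stated, and the low signal of these probe sets was taken as background on that assumption. Where the dimmer group lay below it, the fold is given against it as "at least". Genes were named by rule: the 5 genes, their closest relatives, HES1, ATOH1 and OLFM4, up to 3 called genes per list with the smallest p (or the 1 with the smallest p), and the 3 nearest patterns per gene. Of 12 genes listed as factors of the SERPINA1 promoter, 3 are not reported here. Same-numbered arrays of the groups did not deviate together (r = 0.02, -0.10 and -0.02), so the numbers were not used as pairs. The alternatives were other filters, scalings, floors and probe set rules, the replicate number as a block, and each array left out.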

Additional observations from a re-analysis of the deposited data

How the results depend on the processing

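All 5 genes were higher in CompE in every alternative that could be run for them. ADGRB1 was not among the 10896 least variable probe sets. The 5 genes were chosen for this rise, and the conditions did not overlap in their brightest probe sets. Leaving out 1 array therefore could not turn the sign, and other filters, a higher floor and the replicate block left the values unchanged. The alternatives describe how far the size moved and are no support for the rise. Centred on the hybridisation controls, the log2 differences were 1.72 for OR51E1, 1.28 for HEPACAM2, 1.09 for SERPINA1 and 1.01 for FAM178B. With 16 added before log2, which shrinks dim values, they were 1.30 for HEPACAM2, 1.17 for SERPINA1, 0.99 for FAM178B and 1.40 for ADGRB1. With the mean of its probe sets, SERPINA1 had 0.88. With 1 array left out, the differences were 1.84 to 1.89 for OR51E1, 1.39 to 1.44 for HEPACAM2, 1.20 to 1.27 for SERPINA1, 1.14 to 1.17 for FAM178B and 1.64 to 1.88 for ADGRB1.

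Counts of all genes moved more. Beside 653 that rose and 368 that fell, there were 242 and 121 with no filter, and 1117 and 634 with the lowest 60% left out. Centred on the hybridisation controls, there were 340 and 1552. That centring moved the median change of all genes to -0.12 and the share of rises among calls from 64% to 18%. Among the 10896 least variable probe sets (6869 genes tested), 1768 rose and 1162 fell. These probe sets were picked for a small spread inside the conditions, which the test sets the difference against. Their counts and p-values are therefore inflated by that choice and not comparable with the main fit. With 1 array left out, 162 to 352 rose and 90 to 167 fell. With the replicate number as a block, 70 rose and 32 fell; the pairing has no basis in the labels, and none of the 3 DMSO arrays correlated best with its own number. Of 47 named genes outside the 5 that were called, 18 kept their call in every alternative run and 29 lost it in at least 1. Of those not called, 8 gained it in at least 1, but RIC8B, SLF2 and TNKS2 did so only among the 10896 least variable probe sets. ADGRB2, never called, turned to 0.015 and 0.019 when DMSO replicate 1 or CompE replicate 3 was left out (range -0.168 to 0.019 with each array left out), and TNKS, called only with the lowest 60% of probe sets left out (adjusted p = 0.0438), to -0.052 with the mean of its probe sets. The cause of the lost calls was not tested.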
